A study of Mus musculus with 24 samples.

Results

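Tecrl, Lgi1, P3h2, Lrrc52, Tspan8 and Mss51 are 6 genes, of 19938 that the arrays name singly, whose transcripts set the soleus apart from the quadriceps in control mice. They were chosen by their measured difference between the control muscles, so that difference is described here without a test. By size of that difference over the 15999 genes bright enough to be tested, Tspan8 ranked 3, Mss51 4, Lgi1 6, P3h2 18 and Lrrc52 67, and Tecrl stood above them as fitted, though dim in quadriceps controls. Earlier results of these arrays had also shown Tecrl among the large changes of cKO quadriceps and Lrrc52 among those of cKO soleus, and these changes are likewise given without a p-value. Each gene was read by 1 probe set, and all 6 passed the filter on dim genes.

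The study set nebulin conditional knockout (cKO) mice against controls, with messenger RNA read on Affymetrix arrays. The groups were quadriceps cKO, quadriceps control, soleus cKO and soleus control, with 6 arrays each, 24 in all, from males aged 40 to 42 days. Every mouse, controls included, carried the conditional nebulin (Neb) allele on both chromosomes, on a mixed background of C57BL/6J and 1219S6/SvEvTac. The cKO mice had in addition 1 copy of an MCK-Cre transgene, whose promoter is active in striated muscle fibres, so other cells of the tissue would keep the allele intact; the controls had no Cre. By the study's description the 6 arrays of a group were biological replicates, and the cKO quadriceps was clearly reduced in size while the soleus was not. The sources used here do not say whether same-numbered quadriceps and soleus arrays came from 1 animal. Within a genotype their labelled ages matched but for cKO number 4, at 40 days in quadriceps and 41 days in soleus. Neb, the giant thin filament protein, read lower on every cKO array than on every control array of its muscle (log2 change -1.45, SE 0.11, in quadriceps and -1.14, SE 0.11, in soleus).

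Soleus and quadriceps are textbook examples of a slow and a fast muscle. The mouse soleus holds mostly slow type I and oxidative type IIa fibres and works against gravity for long periods, while the quadriceps holds mostly fast type IIb and IIx fibres that burn glycogen. Nerve firing pattern, calcineurin and NFAT signalling, MEF2 and the homeobox factor Prox1 are known to hold the slow program, and each fibre type has its own contractile, calcium handling and metabolic genes. The 6 genes described here lie outside the sarcomere. Tecrl is an endoplasmic reticulum protein related to the enoyl-CoA reductase Tecr and, in people, is mutated in a form of inherited ventricular tachycardia. Lgi1 is a secreted leucine-rich protein that binds ADAM22 and ADAM23 at synapses, and P3h2 is a prolyl 3-hydroxylase that modifies basement membrane collagen. Lrrc52 is an auxiliary subunit of Slo potassium channels, Tspan8 is a tetraspanin of the cell surface, and Mss51 is a mitochondrial protein of fast muscle whose yeast namesake acts in the translation of a cytochrome oxidase subunit.

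On GRCm38.p6, the assembly that mm10 names, Tecrl lies on chromosome 5 between 83278122 and 83355195, Lgi1 on chromosome 19 between 38264687 and 38308939, and P3h2 on chromosome 16 between 25959284 and 26105813. Lrrc52 lies on chromosome 1 between 167445675 and 167466780, Tspan8 on chromosome 10 between 115816817 and 115849893, and Mss51 on chromosome 14 between 20482857 and 20496901. RefSeq annotates all 6 as protein coding, each on a different chromosome. RefSeq promoter entries of that build matched 5 of the 6 by symbol. The 250 bases before the start are printed for 3 of them, a gene high in soleus in both genotypes (Tecrl), a gene high in quadriceps in both (Mss51) and a gene high in soleus among controls with a small muscle difference in cKO (Lrrc52). Capitals mark matches, on either strand, to CANNTG (the E-box bound by myogenic factors) and to GGAAA (the core bound by NFAT, also within sites of other factors).
Tecrl, minus strand, chr5:83355196-83355445: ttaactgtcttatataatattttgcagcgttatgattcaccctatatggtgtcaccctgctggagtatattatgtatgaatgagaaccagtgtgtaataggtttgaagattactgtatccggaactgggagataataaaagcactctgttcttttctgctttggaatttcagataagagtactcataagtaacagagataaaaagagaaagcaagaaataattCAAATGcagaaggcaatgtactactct
Mss51, minus strand, chr14:20496902-20497151: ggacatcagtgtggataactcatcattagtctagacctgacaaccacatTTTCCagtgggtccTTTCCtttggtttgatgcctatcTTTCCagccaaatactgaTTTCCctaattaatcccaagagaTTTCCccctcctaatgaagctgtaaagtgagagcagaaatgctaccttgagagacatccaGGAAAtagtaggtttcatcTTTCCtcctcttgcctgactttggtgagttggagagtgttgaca
Lrrc52, minus strand, chr1:167466781-167467030: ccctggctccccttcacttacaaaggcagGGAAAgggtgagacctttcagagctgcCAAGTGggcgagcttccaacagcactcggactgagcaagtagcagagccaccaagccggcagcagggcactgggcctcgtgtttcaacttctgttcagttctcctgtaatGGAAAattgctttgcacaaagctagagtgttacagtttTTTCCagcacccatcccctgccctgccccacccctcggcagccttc

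In these windows Tecrl held 1 E-box, 27 bases before the start, and no GGAAA. Mss51 held 7 GGAAA matches and no E-box, and Lrrc52 held 3 GGAAA matches and 1 E-box. Among the other entries, Lgi1 held 1 E-box and no GGAAA, and Tspan8 held 1 GGAAA and no E-box. The Tspan8 window, chr10:115817034-115817283 on the plus strand, lies inside the gene span given above and not before it. Of 32851 promoter windows of the same length, 66.2% held an E-box and 55.6% a GGAAA, while 0.00913% (3 windows, that of Mss51 included) held 7 or more GGAAA matches. That cutoff was taken from Mss51 itself, so nothing is read from this share. None of the 5 windows held a match to the MEF2 motif or to CATTCC, the core bound by TEAD factors, which 2.92% and 12.6% of windows held. Likewise, none held TATAAA, where the basal transcription machinery can bind, against 12.4% of windows. A match is a string of letters and no measured site.

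Levels are log2 intensities, on which 1 unit is a doubling, and they compare arrays for 1 probe set, not genes with each other. The dim limit of an array is the 30th percentile over its probe sets and lay between 3.51 and 3.72. Array medians lay between 4.74 and 4.94, and the correlation across genes between 2 arrays of 1 group was 0.977 at the lowest and 0.995 at the highest. The skeletal muscle markers were bright in every group, for example creatine kinase (Ckm) with a median of 12.7 in quadriceps cKO, 12.9 in quadriceps control and 12.6 in both soleus groups. Of these 7 markers 3 were lower and 1 higher in cKO quadriceps, and 2 were lower and 1 higher in cKO soleus. In both genotypes the soleus arrays read higher in slow and lower in fast fibre genes than the quadriceps arrays. The mean level of 12 slow fibre genes lay between 10.28 and 10.78 in quadriceps cKO, between 8.21 and 9.44 in quadriceps control, between 11.67 and 11.72 in soleus cKO and between 10.99 and 11.59 in soleus control.

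Single control arrays stood apart in these lists. In the fast list of 14 genes soleus control 1 read 10.64, against 10.96 to 11.66 on the other soleus controls and 9.96 to 10.60 in soleus cKO, and in the slow list it read 11.59, against at most 11.15 on the other soleus controls. Quadriceps controls 1 and 6 read 9.44 and 9.27 in the slow list, and the other quadriceps controls at most 8.49. Results in soleus are therefore also given without soleus control 1. The fast IIb myosin Myh4 differed widely among soleus controls, from 7.41 on array 4 and 7.97 on array 1 to 11.78 on array 2, and lay between 6.87 and 9.57 in soleus cKO.

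**Figure D1:**
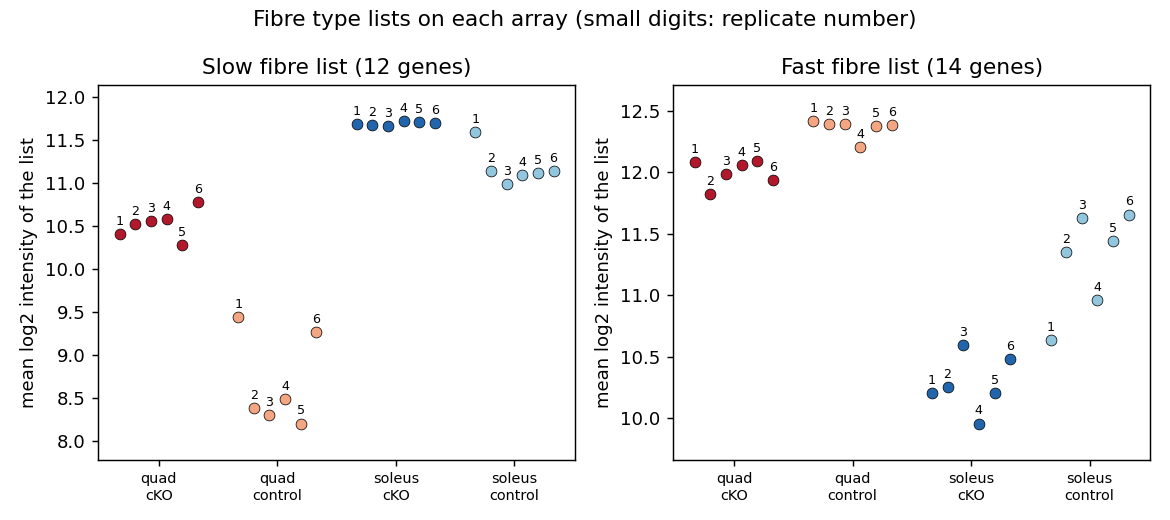
Mean log2 intensity (y axis) of 12 slow fibre genes (left) and 14 fast fibre genes (right) on each array, by group on the x axis, with the replicate number above each point. Soleus control 1 lies at 11.59 in the slow and 10.64 in the fast list, and quadriceps controls 1 and 6 lie at 9.44 and 9.27 in the slow list.

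Across the 4 groups the members fell into several patterns. Tecrl and P3h2 were higher in cKO in both muscles, Tspan8 was lower in cKO in both, Mss51 was lower in cKO quadriceps, Lrrc52 was lower in cKO soleus, and no change of Lgi1 passed the test in either muscle. Of the 6 members 4 passed an adjusted p of 0.05 for cKO against control in quadriceps and 4 in soleus, where 40.0% and 23.1% of all tested genes passed. Nothing is read from 4 of 6 beside such shares. The counts also hold the changes of Tecrl in quadriceps and Lrrc52 in soleus, which were known beforehand. Without soleus control 1 the soleus count was 4 as well. These tests share the control arrays on which the members were chosen, so their p-values describe the fit and are not independent of the choice.

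**Figure D2:**
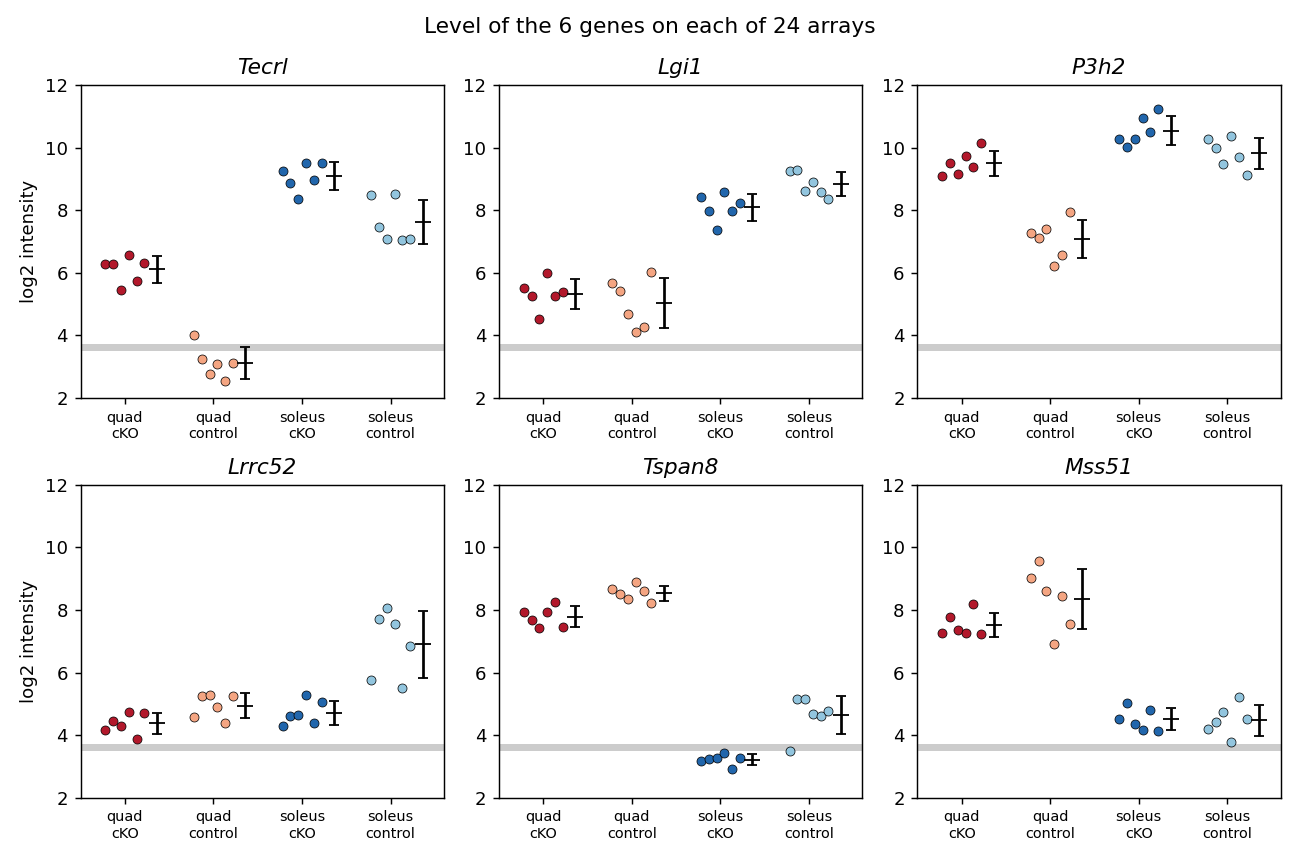
Log2 intensity (y axis) of each of the 6 genes on the 24 arrays, by group on the x axis; points are arrays, in order of replicate number, black marks are the mean and SD (n = 6) beside each group, and the grey band spans the dim limits of the arrays (3.51 to 3.72). Tecrl lies under the band in 5 of 6 quadriceps controls and Tspan8 in all soleus cKO arrays, and Lrrc52 spreads from 5.52 to 8.06 in soleus controls.

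The comparison whose means did not need the control arrays was soleus cKO against quadriceps cKO. In it 5 of the 6 members still differed between the muscles, in the direction seen in controls, where 28.8% of all tested genes passed. Tecrl, Lgi1 and P3h2 were higher in soleus cKO than in quadriceps cKO, Tspan8 and Mss51 were lower, and Lrrc52 did not pass. Earlier results had shown Tecrl changed in cKO quadriceps and Lrrc52 in cKO soleus. For these genes the comparison may therefore not be independent of the choice. With same-numbered cKO arrays taken as pairs, a fit added after the data were seen, all 6 members passed, Lrrc52 included. In that fit 45.9% of all tested genes passed. Of 37 alternatives for this comparison, that fit was the only 1 to call Lrrc52. The fits of all groups that took the replicate number, or genotype with number, as a block did not call it. Between the control muscles 33.5% of tested genes passed; the members were picked on this contrast and nothing is read from it. The difference between the cKO changes of the muscles crossed the threshold for 3 members, Tecrl, P3h2 and Lrrc52, and for 12.3% of all genes. It contains the control contrast on which the members were picked, so it is given as a description, with no p-value. For Tecrl and Lrrc52 it also contains a cKO change that was known beforehand. Without soleus control 1 the count was 4.

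**Figure D3:**
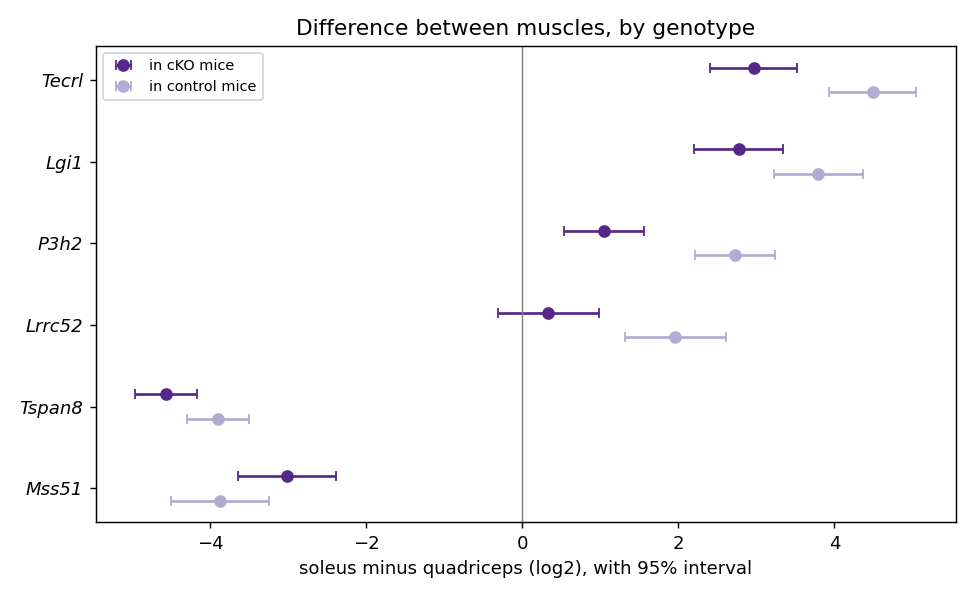
Soleus minus quadriceps on the log2 scale (x axis) for each gene (y axis), in cKO mice (dark, above) and in control mice (pale, below), with the 95% interval of the limma fit. The control values chose the genes; in cKO the unpaired interval of Lrrc52 (-0.31 to 0.98) spans 0 and those of the other 5 genes do not.

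Tecrl was higher in soleus than in quadriceps in both genotypes and higher in cKO in both muscles. Its level in soleus ran from 8.37 through a median of 9.10 to 9.52 in cKO, and from 7.06 through 7.27 to 8.53 in controls. These ranges overlapped, with soleus controls 1 and 4 (8.50 and 8.53) above the lowest cKO array. In quadriceps it ran from 5.44 through 6.29 to 6.58 in cKO, and from 2.53 through 3.11 to 4.02 in controls, with no overlap. Only quadriceps control 1 exceeded its dim limit, so changes against the quadriceps controls are fitted values and not exact. The order of the groups was soleus cKO, soleus control, quadriceps cKO and quadriceps control, and only the soleus groups overlapped.

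In soleus Tecrl rose 2.75-fold in cKO (log2 change 1.46, SE 0.27, limma adjusted p = 0.000206), and by 1.63 on the log2 scale without soleus control 1. In quadriceps the fitted change was 2.98 (SE 0.27), 7.91-fold higher in cKO, or 2.45 on the log2 scale with values under the dim limit set to that limit. The soleus of cKO mice exceeded their quadriceps 7.81-fold (log2 difference 2.97, SE 0.27, limma adjusted p = 7.81e-09), against 4.49 (SE 0.27) in controls, or 3.96 with values under the dim limit set to that limit. The p-value between the cKO muscles may not be independent of the choice, since the cKO quadriceps change of Tecrl was known beforehand. The fitted changes of the muscles differed by -1.53 (SE 0.39), but with values under the dim limit set to that limit the difference was -0.99.

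P3h2 was higher in cKO quadriceps, to levels that overlapped those of soleus. In quadriceps it ran from 9.09 through 9.43 to 10.13 in cKO, and from 6.21 through 7.19 to 7.93 in controls, so every cKO array lay above every control. In soleus it ran from 10.01 through 10.40 to 11.22 in cKO, and from 9.11 through 9.84 to 10.37 in controls. The soleus groups overlapped, and quadriceps cKO overlapped both of them. The order of the means was soleus cKO, soleus control, quadriceps cKO and quadriceps control.

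P3h2 rose 5.31-fold in cKO quadriceps (log2 change 2.41, SE 0.25, limma adjusted p = 2.32e-08), against controls on which the gene was chosen. It rose 1.66-fold in cKO soleus (0.73, SE 0.25, adjusted p = 0.0357), and this call was lost without soleus cKO 4, 5 or 6 or soleus control 3, 5 or 6 (up to adjusted p = 0.103). The soleus minus quadriceps difference was 1.05 in cKO (SE 0.25, adjusted p = 0.00302) and 2.73 (SE 0.25) in controls. The changes of the muscles differed by -1.68 (SE 0.36). Without soleus control 1 the soleus change was 0.82 and the difference of the changes -1.59.

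Lgi1 was higher in soleus than in quadriceps in both genotypes. In soleus it ran from 7.36 through 8.11 to 8.59 in cKO, and from 8.35 through 8.74 to 9.27 in controls, with overlap. In quadriceps it ran from 4.51 through 5.33 to 6.01 in cKO, and from 4.10 through 5.06 to 6.03 in controls, where the control arrays took up the whole range of the cKO arrays. Both soleus groups lay above both quadriceps groups on every array. The difference between muscles was 2.77 in cKO (SE 0.28, limma adjusted p = 3.57e-08, 6.83-fold) and 3.79 (SE 0.28) in controls.

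No change of Lgi1 in cKO passed. The soleus value was -0.73 (95% interval -1.30 to -0.16, adjusted p = 0.058) and the quadriceps value 0.29 (-0.28 to 0.86, adjusted p = 0.415). Fitted on the soleus arrays alone the soleus value passed (limma adjusted p = 0.0108). It passed in 11 of 36 alternatives, that fit included, and 6 of the 11 were fits with a single array left out. Without soleus control 1 the soleus value was -0.64. The muscles' changes differed by -1.02 (SE 0.39, 95% interval -1.82 to -0.21, not adjusted for the number of genes), and this was not called. The value holds the control contrast on which Lgi1 was chosen, so it is a description.

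Lrrc52 was high in soleus controls and low in the other groups. In soleus it ran from 4.30 through 4.63 to 5.29 in cKO, and from 5.52 through 7.20 to 8.06 in controls. All soleus controls exceeded all soleus cKO arrays, but they were wide apart, with arrays 1 and 5 at 5.75 and 5.52 and the other 4 at 6.83 or more. In quadriceps it ran from 3.89 through 4.37 to 4.75 in cKO, and from 4.38 through 5.07 to 5.29 in controls. Soleus control came first in the order of means, followed by quadriceps control, soleus cKO and quadriceps cKO, and these last 3 overlapped each other.

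In cKO soleus Lrrc52 was 4.57-fold lower than in control soleus (log2 change -2.19, SE 0.31), and the value was -2.42 without soleus control 1. In quadriceps the change was -0.56 (95% interval -1.21 to 0.08, limma adjusted p = 0.153), which passed with the quadriceps arrays fitted alone (adjusted p = 0.0199). Between the cKO muscles soleus minus quadriceps was 0.33, with a 95% interval of -0.31 to 0.98 (limma adjusted p = 0.431), against 1.96 (SE 0.31) in controls. Same-numbered cKO arrays, whose deviations correlate across genes, differed by 0.12, 0.17, 0.33, 0.54, 0.49 and 0.35 in numbers 1 to 6, higher in soleus in all 6 pairs. Fitted as pairs on the cKO arrays alone, the difference of 0.33 passed (SE 0.07, limma adjusted p = 0.00255). Number 4, with the largest of these differences, joins arrays labelled with different ages, so it may not be a pair from 1 animal. The paired fit was added after the data were seen, and it was the only 1 of 37 alternatives in which Lrrc52 passed here. Fits of all groups with the replicate number, or genotype with number, as a block did not call the difference. The unpaired interval lies below the control value, but both Lrrc52 contrasts may have entered the choice of the gene. The changes of the muscles differed by -1.63 (SE 0.44), a description for the same reason.

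Tspan8 was higher in quadriceps than in soleus in both genotypes. In quadriceps it ran from 7.43 through 7.81 to 8.27 in cKO, and from 8.22 through 8.55 to 8.89 in controls, with 1 cKO array, number 5, above the lowest control. In soleus it ran from 2.93 through 3.25 to 3.44 in cKO, under the dim limit on every array, and from 3.50 through 4.72 to 5.16 in controls, where 5 of 6 arrays exceeded it. The exception was soleus control 1 at 3.50. The order was quadriceps control, quadriceps cKO, soleus control and soleus cKO, and only the quadriceps groups overlapped.

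Tspan8 fell 1.68-fold in cKO quadriceps (log2 change -0.75, SE 0.19, limma adjusted p = 0.00306), against controls on which the gene was chosen. In cKO soleus it was at least 1.999-fold lower than in controls (fitted change -1.42, SE 0.19, adjusted p = 3.33e-06), and -1.65 without soleus control 1. Soleus cKO was at least 17.7-fold lower than quadriceps cKO (fitted difference -4.56, SE 0.19, adjusted p = 4.08e-15), against -3.89 (SE 0.19) between the control muscles. The changes of the muscles differed by -0.67 (SE 0.27), by -0.28 with values under the dim limit set to that limit, and by -0.90 without soleus control 1.

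The fast fibre list moved with Tspan8 in soleus, at 9.96 to 10.60 in cKO and 10.64 to 11.66 in controls, and soleus control 1 was lowest of the controls in both. All 14 of its genes were measured and none was dim on every array of a group; its part in the Tspan8 result was not tested. Tspan8 is also known from epithelia. Of the 5 epithelial markers the defining one, Epcam, lay between 3.59 and 3.83 in quadriceps cKO, 3.65 and 4.02 in quadriceps control, 3.66 and 3.87 in soleus cKO, and 3.72 and 3.97 in soleus control, close to the dim limit in all of them. The mean of the 5 ran from 5.19 to 5.50, from 4.43 to 4.84, from 4.64 to 4.91 and from 4.69 to 4.87 in that order, highest in quadriceps cKO. Of the 5 markers 2 were higher and 1 lower in cKO quadriceps, and 1 was higher in cKO soleus. Their part in the Tspan8 result was not tested.

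Mss51 was likewise higher in quadriceps in both genotypes. In quadriceps it ran from 7.22 through 7.31 to 8.19 in cKO, and from 6.90 through 8.53 to 9.56 in controls. The quadriceps groups overlapped, and control 4 at 6.90 read below every cKO array. In soleus it ran from 4.14 through 4.44 to 5.01 in cKO, and from 3.77 through 4.47 to 5.23 in controls, and every soleus array lay below every quadriceps array. The groups of 1 muscle overlapped each other.

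Mss51 fell 1.78-fold in cKO quadriceps (log2 change -0.83, SE 0.31, limma adjusted p = 0.032), against controls on which the gene was chosen. This call was lost without quadriceps cKO 1, 3, 4 or 6 or quadriceps control 1, 2, 3 or 5, most of all without control 2 (-0.59, adjusted p = 0.108), and with the quadriceps arrays fitted alone (adjusted p = 0.0677), while array weights gave -1.29. In soleus the change was 0.03 (95% interval -0.60 to 0.66, adjusted p = 0.963), with a sign that turned under scaling to the 75th percentile and without soleus control 1 (-0.03). Soleus cKO was 8.06-fold lower than quadriceps cKO (log2 difference -3.01, SE 0.31, adjusted p = 4.88e-08), against -3.87 (SE 0.31) between controls. The changes of the muscles differed by 0.86 (95% interval -0.03 to 1.75), and by 1.35 with array weights.

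**Figure D4:**
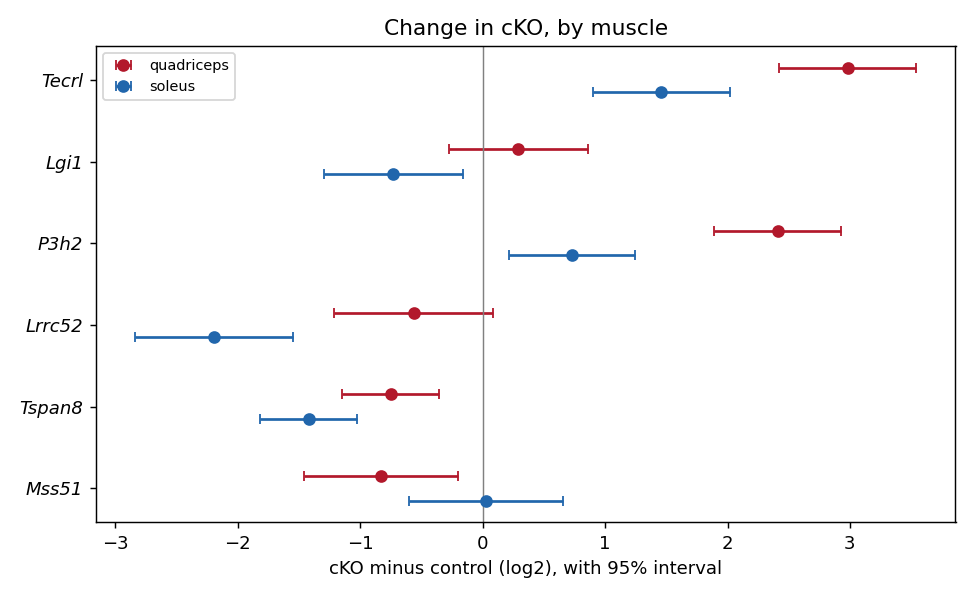
Change in cKO against control on the log2 scale (x axis) for each gene (y axis), in quadriceps (red, above) and soleus (blue, below), with the 95% interval of the limma fit. Tecrl and P3h2 lie right of 0 in both muscles and Tspan8 left of 0 in both, and Lrrc52 reaches -2.19 in soleus.

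Arrays of a group also differed among themselves in the members, and some members did so together. After each group's mean was taken away, the deviations of Tecrl, Lgi1 and P3h2 correlated with r of 0.67 (Tecrl with Lgi1), 0.58 (Tecrl with P3h2) and 0.69 (Lgi1 with P3h2) over the 24 arrays. Lrrc52 and Tspan8 gave 0.44, and the other 11 of 15 pairs lay between -0.38 and 0.25. These are descriptions of arrays that may share animals, and they have no p-value. In bulk muscle, fewer fibres of a type and less RNA per fibre cannot be told apart.

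The genes whose levels ran most like each member over the 24 arrays were taken by Pearson's r. For Tecrl they were Xpo4 and Prox1 (both 0.978), Pdlim1 (0.972), Nlrc3 and Myh6 (both 0.967), and for P3h2 they were Prox1 (0.965) and Xpo4 (0.959) again, followed by Uhrf1bp1l, Tnni1 and Slc12a4. For Lgi1 they were Myl3, Sim1, Tead1, Homer2 and Ldhb, with r between 0.948 and 0.955. Tspan8 ran with Maf, Ldha, Phkb, Aldoa and Gpd1, at 0.955 to 0.957, and Mss51 with Cpe (0.967), Setd7, Itfg1, Smoc2 and Prkag3. Lrrc52 ran with Ppara (0.958), Arhgef15, St8sia6, Khdrbs3 and Gata2. Much of such a value comes from the 4 groups, since the arrays form separate clusters, so the correlation of the deviations from the group means is given beside it.

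Those within-group values were highest for Lrrc52 with Ppara, at 0.88, and for Lrrc52 with St8sia6 (0.79), Lgi1 with Tead1 (0.77), and P3h2 with Slc12a4 (0.76) and with Xpo4 (0.75). They were lowest for Tspan8 with Gpd1 (0.29), Maf (0.30) and Aldoa (0.31) and for Lgi1 with Myl3 (0.31). Ppara, the nuclear receptor that governs fatty acid oxidation genes, ran from 6.77 through 7.19 to 7.44 in soleus cKO, and from 7.59 through 8.16 to 9.12 in soleus control, and in quadriceps from 6.55 to 7.07 in cKO and from 6.91 to 7.76 in control. Soleus controls 1 and 5, low in Lrrc52, were also the lowest soleus controls in Ppara. Prox1 averaged 6.69 ± 0.14 in quadriceps cKO, 5.12 ± 0.34 in quadriceps control, 7.86 ± 0.14 in soleus cKO and 7.29 ± 0.44 in soleus control (SD, n = 6 each), the order of Tecrl and P3h2 with soleus above quadriceps and cKO above control.

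**Figure D5:**
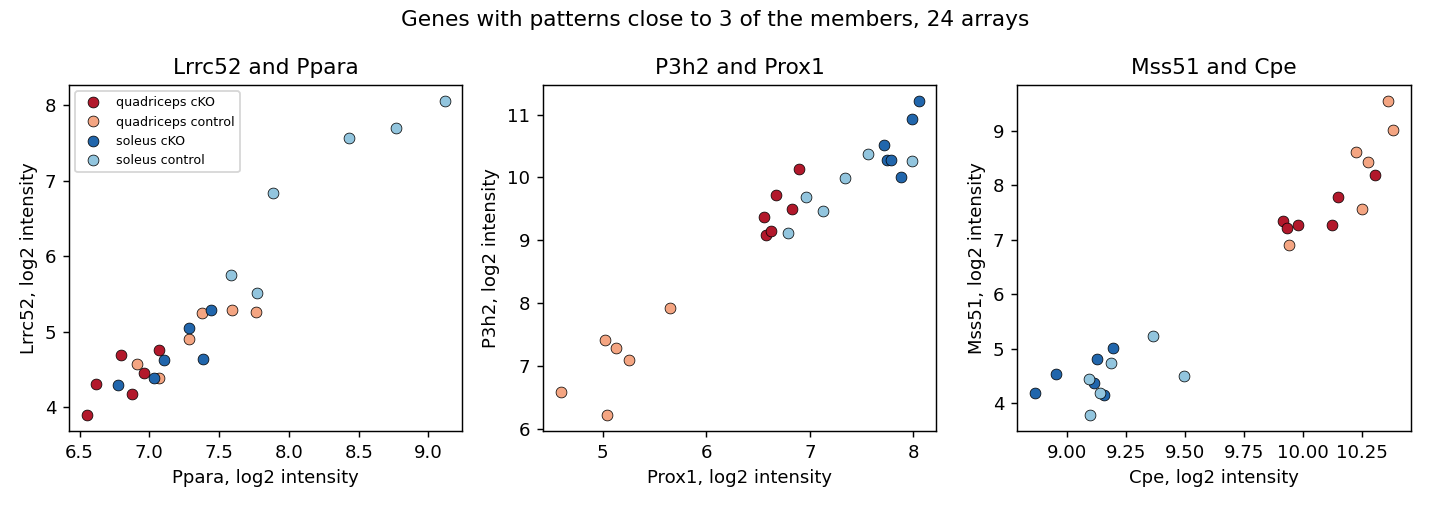
Log2 intensities of Lrrc52, P3h2 and Mss51 (y axes) against those of Ppara, Prox1 and Cpe (x axes), 1 point per array, coloured by group. Soleus controls spread along the Lrrc52 and Ppara axes together, while for Mss51 and Cpe the 2 muscles form separate clouds.

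The relatives of the members were read from lists, with values given as log2 changes of cKO against control, beside all genes tested, of which 22.3% were higher and 17.7% lower in cKO quadriceps and 13.2% higher and 9.94% lower in cKO soleus. With arrays scaled to their 75th percentile the higher share of all calls was 37.5% in place of 55.7% in quadriceps and 47.3% in place of 57.0% in soleus, where centring on the median gave 66.9%. The median change of all genes was -0.01 in quadriceps and -0.02 in soleus. The slow list stood far from these values in quadriceps: all 12 were higher (median 1.94), among them the troponins Tnni1 (2.53) and Tnnc1 (2.35) and the light chain Myl6b (2.54). In soleus 5 were higher and 1 lower (median 0.37), with Myl6b at 2.22, and without soleus control 1 none was lower. In the fast list of 14 genes 8 were lower and 1 higher in quadriceps (median -0.34), with the kinase Mylk2 at -1.41 and the IIa myosin Myh2 at 1.01, and 10 were lower in soleus (median -0.59), with the calcium buffer Pvalb at -2.96.

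Of 13 kept genes of its family and of fatty acid elongation, 6 were higher and 2 lower in quadriceps (median 0.21), with the elongase Elovl1 at 0.82, the dehydratase Hacd3 at 0.86 and Tecr itself at -0.32. In soleus 2 were higher (median 0.14), Hacd3 at 0.58 and Tecr at 0.24, the call of Tecr being lost with the soleus arrays fitted alone (adjusted p = 0.0707). Among 14 calcium release genes, which include the tachycardia genes of people, 3 were higher and 5 lower in quadriceps (median -0.15) and 3 higher and 3 lower in soleus (median 0.01). Calsequestrin 2 (Casq2, also in the slow list) was at 2.17 and 0.90 in quadriceps and soleus, the ryanodine receptor Ryr3 at 1.13 and 1.87, and the junctophilin Jph2 at -1.13 and -0.04, of which the last did not pass (adjusted p = 0.845).

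Of 8 relatives and receptors of Lgi1, 3 were lower in cKO soleus and none higher (median -0.07). They were the receptor genes Adam22 (-0.54) and Adam23 (-0.52) and the family member Lgi2 (-0.43). In quadriceps 2 were higher and 1 lower (median 0.12), with Lgi4, known from Schwann cells, at 0.42. The call of Adam23 was lost with the soleus arrays fitted alone (adjusted p = 0.0534). Of the 3 measured Schwann cell markers 1 was lower in cKO quadriceps, and the others did not pass in either muscle; their mean level ran from 5.12 to 5.31 in quadriceps cKO, 5.13 to 5.38 in quadriceps control, 4.69 to 5.19 in soleus cKO and 4.86 to 5.12 in soleus control.

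Around P3h2, 6 of 12 genes of collagen prolyl and lysyl hydroxylation were higher and 1 lower in cKO quadriceps (median 0.28), and 5 were higher and none lower in soleus (median 0.25), or 1 lower without soleus control 1. The lysyl hydroxylase Plod2 was at 1.16 and 0.79 in quadriceps and soleus and the cyclophilin Ppib at 0.46 and 0.37, whereas the prolyl 4-hydroxylase P4ha2 was at -0.49 in quadriceps. Of 13 type IV collagen and basement membrane genes, the tissue P3h2 acts on, 8 were higher and 1 lower in quadriceps (median 0.34) and 3 higher and 1 lower in soleus (median 0.16). Laminin gamma 1 (Lamc1) was at 0.41 and 0.71. Fibroblast markers were higher too, 5 of 6 in quadriceps (mean level 10.27 to 10.55 in cKO, 9.54 to 10.33 in control) and 3 of 6 in soleus (9.83 to 10.29 in cKO, 9.70 to 10.03 in control), and none of the 6 was dim on every array of a group. Their part in the P3h2 result was not tested.

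Of the other tetraspanins more were higher than lower in cKO, opposite to Tspan8. Of 24 kept tetraspanins 10 were higher and 1 lower in cKO quadriceps (median 0.30), and 6 were higher and 3 lower in soleus (median 0.14). Cd82 was at 1.57 in quadriceps and 0.77 in soleus, Cd151 at 0.69 and 0.83, and Tspan2 at -0.81 in soleus. Cd53, which marks leukocytes, was at 0.94 in quadriceps. Macrophage markers were higher in 5 of 6 in both muscles, with mean levels of 6.54 to 6.87 in quadriceps cKO, 5.61 to 6.31 in quadriceps control, 6.30 to 6.74 in soleus cKO and 5.52 to 6.00 in soleus control. Their part in these tetraspanin values was not tested.

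Around Mss51, 8 of 16 cytochrome oxidase assembly genes were lower and 1 higher in cKO quadriceps (median -0.24), and 6 were lower and 1 higher in soleus (median -0.17), or 2 higher without soleus control 1. The heme farnesylation enzyme Cox10 was at -0.44 and -0.39 in quadriceps and soleus, Cox11 at -0.73 and -0.43, and the translational activator Taco1 at -0.53 and -0.55. In the list of Lrrc52, of 10 kept Slo channel genes, 1 was lower and 2 higher in quadriceps and 2 were lower and 1 higher in soleus (medians -0.03 and -0.02). The related auxiliary subunits Lrrc38 (-1.12 in quadriceps, -0.92 in soleus) and Lrrc55 (-0.70 in soleus) were among those lower. Kcnt2 was higher in both muscles, at 0.84 in quadriceps and 0.31 in soleus. Its soleus call was lost with scaling to the 75th percentile (limma adjusted p = 0.0536). The pore subunit Kcnma1 was at 0.61 in quadriceps, a call lost with the mean of its probe sets (adjusted p = 0.0875). Without soleus control 1 the Slo list had 2 lower in quadriceps and none higher in soleus.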

How the data were processed

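The members and gene lists were chosen with earlier results of these data known. Per the submitters' processing notes the authors used Affymetrix Expression Console with RMA, on mm10; of versions and settings the sources used here say nothing. The values deposited were linear intensities, between 1.76 and 10075, and log2 was taken of them. Of 35557 probe sets, 21789 had 1 gene symbol in the annotation table, 1621 several and 12147 none listed; only the first kind was used. Symbols were updated by Entrez number (21698 matched RefSeq of GRCm38.p6). For a gene with several probe sets the brightest was used. A gene was kept if it exceeded the array's 30th percentile on at least 6 arrays, which left 15999 of 19938 genes.

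The 4 groups, 24 arrays together, went into a single linear model with limma 3.58.1 under R 4.3.3 (lmFit, then eBayes; 20 residual degrees of freedom), and p-values, two-sided, were adjusted by Benjamini-Hochberg over all kept genes and called under 0.05. The code was tested on simulated data. Groups and replicate numbers came from the titles. Where a group lay under the dim limit on every array, its fold is a bound, the bright group's mean against the mean of the higher of limit and value per array. Named genes are the members, the 5 most like each by Pearson's r over the 24 arrays (predicted and small RNA genes left out), Neb, and up to 4 genes per list and muscle with the smallest p, of which some are named; Ckm, Epcam and Myh4 were named after their values were seen. Same-numbered arrays of 1 genotype were checked for pairing: their deviations from the group means correlated between 0.22 and 0.45 in cKO and between 0.16 and 0.31 in controls, all 6 pairs above 0.1 in each, so the muscles were taken as paired in blocked alternatives. The labelled ages of cKO number 4 differ between the muscles. Precision is limited by the number of arrays; scan dates were not used here.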

Additional observations from a re-analysis of the deposited data

Results flagged for a closer look

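Tspan8 on soleus control 1 read 3.50, apart from the other soleus controls, of which the nearest read 4.61; this was the 1 of 24 sets of 6 arrays checked in which a lone array stood out, and chance gives about 1 in 20. The same array was lowest of its group in the fast fibre list (10.64) and highest in the slow list (11.59).

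The cKO changes of the muscles, soleus minus quadriceps, crossed the threshold of the limma interaction contrast for Tecrl (-1.53), P3h2 (-1.68) and Lrrc52 (-1.63). The first pair were higher in cKO in both muscles, more so in quadriceps, while Lrrc52 was lower in soleus. All 3 values hold the control contrast on which the genes were chosen, so they are descriptions, and that of Tecrl also holds quadriceps control arrays under the dim limit. Those of Tecrl and Lrrc52 hold in addition a cKO change that was known beforehand.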

How the results depend on the processing

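Of 30 member results 20 kept direction and side of the threshold in all alternatives (13 settings and 24 single arrays left out), and 47 of 1080 alternative values did not. In quadriceps, Mss51 lost its call with only the compared arrays and with trend and robust settings (-0.83 in both), and lay between -1.12 and -0.59 without single arrays; Lrrc52 passed with only the compared arrays and with the replicate number as a fixed block (-0.56 in both). In soleus, Lgi1 passed with 75th percentile scaling (-0.76), quantile normalization (-0.78), only the compared arrays and the fixed replicate block (-0.73 in both) and array weights (-0.74), between -0.83 and -0.58 without single arrays. P3h2 lost its soleus call with quantile normalization (0.66) and with trend and robust settings (0.73), between 0.59 and 0.84 without single arrays. The soleus value of Mss51, not called, turned to -0.0085 with 75th percentile scaling and lay between -0.11 and 0.18 without single arrays. For the difference of the changes, Tecrl lost its call with dim values set to the limit (-0.99); Lgi1 passed with array weights (-0.998) and with the replicate number as a fixed and genotype with number as a random block (-1.02 in both), between -1.22 and -0.83 without single arrays; Tspan8 was -0.28 with dim values set to the limit; Tspan8 (-0.91) and Mss51 (1.35) passed with array weights, between -0.90 and -0.57 and between 0.62 and 1.15 without single arrays. The number of members passing there was 6 with array weights. Between the cKO muscles Lrrc52 passed with the replicate number as a block on the cKO arrays alone (0.33), which called 7342 genes in place of 4614. The replicate blocks changed no other call of a member. Over all 24 arrays the fixed block of the replicate number also joined arrays of different genotype, which the labels do not pair. Between genotypes, correlations of same-numbered arrays were above 0.1 in 3 of 6 pairs in quadriceps (-0.15 to 0.17) and in 4 of 6 in soleus (0.04 to 0.32). In soleus 4 of 6 arrays correlated best with their own number. Nothing is read from the calls of cKO against control that this block changed. Median centring moved the median of all genes between control muscles to -0.07, against 0.03 as deposited. Of 1015 alternative values of named list genes 23 lost the call and 0 turned direction, and 11 of 120 list counts moved by over 1.5 times. With median centring the count lower in soleus was 0 for the collagen and slow lists, the count higher in soleus 2 for the oxidase list, and the count lower in quadriceps 2 for the Slo list; with no filter the Tecrl list had 1 higher and the slow list 0 lower in soleus. List counts without soleus control 1 and the paired fit of the cKO arrays were added after the data were seen. Fitting only the compared arrays gives no value for the difference of the changes, which needs all 4 groups. The causes were not tested.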

Other observations

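Markers of cells other than muscle fibres that were not set beside a member above also moved with genotype. Of 6 endothelial markers 4 were lower in cKO soleus and none passed in quadriceps, with mean levels of 7.63 to 8.05 in soleus cKO and 8.28 to 8.83 in soleus control. Of 5 tendon markers 4 were lower in cKO soleus (7.05 to 7.78 in soleus cKO, 7.98 to 8.45 in soleus control) and 1 in cKO quadriceps. Of 4 measured adipocyte markers 3 were higher in cKO quadriceps (7.53 to 9.46 in quadriceps cKO, 6.76 to 8.35 in quadriceps control) and none passed in soleus. Whether these changes differed between the muscles was not tested.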
